A study of Mus musculus with 6 samples.

Results

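The IL-6 family genes described here are 10 of the 29595 genes in the deposited table, chosen by name: the ligands Il6, Lif, Il11 and Clcf1, the receptor subunits Il6st, Il6ra, Lifr and Osmr, the transcription factor Stat3 and its feedback inhibitor Socs3. They were measured by RNA sequencing in TKPTS cells, an immortalised line of mouse renal proximal tubule cells. The Hnf3a group (3 libraries) had received the plasmid pcDNA3.1-Hnf3a-Flag, which carries HNF3α (gene symbol Foxa1), a forkhead transcription factor, with a Flag tag. The pcDNA group (3 libraries) had received pcDNA3.1-Flag, the same vector with no insert, and cells of both groups were harvested 24 hours after transfection. Both groups therefore shared the cell line, the vector backbone and the transfection. The plasmid's promoter is a strong viral one, the sequencing pooled all cells of a culture, and the share of cells that took up plasmid is not given. The comparison asked which genes of this cytokine pathway differed when HNF3α was overexpressed.

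Cytokines of the IL-6 family bind receptor complexes that all contain gp130, the product of Il6st. Each complex adds a partner that sets its ligand: IL-6 receptor alpha for IL-6, the LIF receptor for LIF, and the oncostatin M receptor for oncostatin M. Janus kinases on the receptor tails then phosphorylate STAT3, which switches on target genes, SOCS3 among them, and SOCS3 blocks the kinases in turn. In the injured kidney, tubule cells are among the known sources of these cytokines.

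All 10 genes passed the filter on low counts, as did 17824 of the genes in the table. At an adjusted p under 0.05 in edgeR, 5 of the 10 differed between the groups, where 3.17% of all tested genes did. The 10 genes were chosen with earlier results of these data known, so this is not an independent comparison. Il11 and Lifr were higher in the Hnf3a group (1.04% of all tested genes were higher), while Il6, Lif and Il6st were lower (2.13% of all tested genes were lower). Clcf1, Il6ra, Osmr, Stat3 and Socs3 did not pass the test. The groups did not overlap for 6 of the 10, the 5 named and Stat3, where this held for 18.9% of all tested genes. The median log2 fold change of the 10 was -0.03, and that of all tested genes was 0.0008. In bulk RNA of this kind, fewer cells making a transcript and less of it per cell cannot be told apart. Levels are given in FPKM (fragments per kilobase of transcript, scaled to library size), which can be compared between genes, and the log2 fold changes are those of the count model, Hnf3a over pcDNA.

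**Figure D1:**
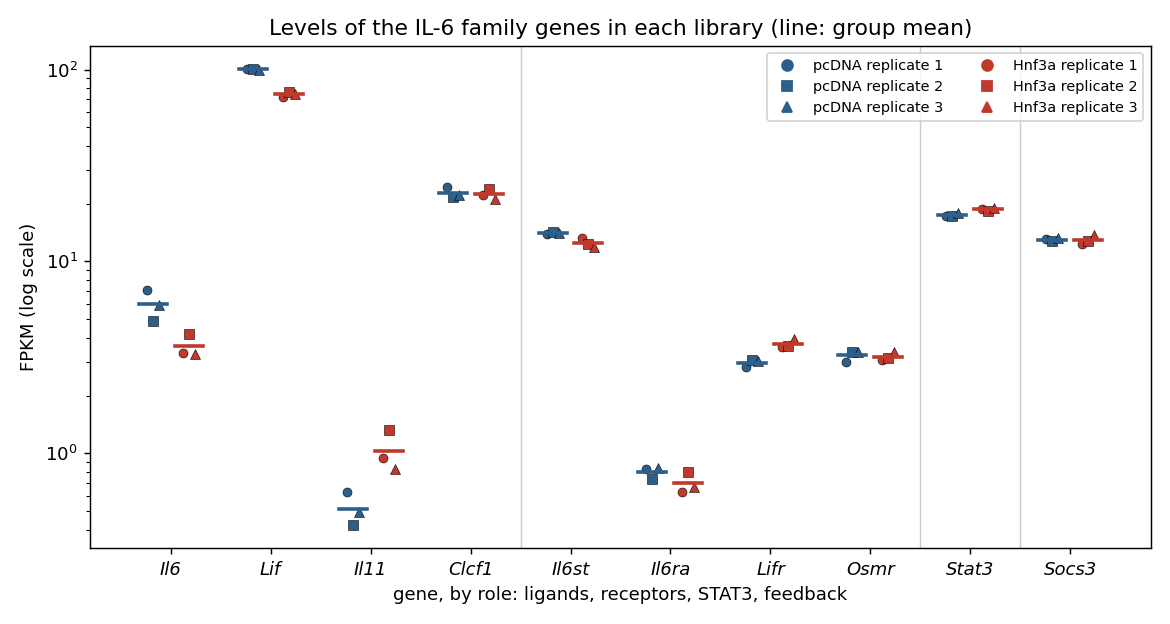
FPKM (log scale) of each of the 10 genes in each of the 6 libraries, pcDNA in blue and Hnf3a in red, with a line at each group mean and grey lines between ligands, receptors, Stat3 and Socs3. Lif lies highest at 72.1 to 101 FPKM, and the red and blue points are apart for Il6, Lif, Il11, Il6st, Lifr and Stat3.

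The libraries held totals of 60473818 to 71154667 estimated counts. In the Hnf3a group Foxa1 reached 304.6 ± 26.2 FPKM against 9.66 ± 0.259 FPKM in the pcDNA group (SD, n = 3 each), where transcripts of the plasmid and of the chromosomal gene are counted together. Kidney epithelial markers such as Pax8, Cdh1, Krt8 and Krt18 summed to between 1651 and 1792 CPM (counts scaled to library size) in each library, all 7 of 7 above a detection floor of 12 counts. Defining markers of the proximal tubule were near absent, with at most 58 counts of Cubn, 53 of Lrp2 and 3 of Slc5a2 in any library. Hnf3a replicates 2 and 3 stood apart from the rest. Their 8 fibroblast markers summed to 65.4 and 82.4 CPM, against 2.06 CPM in Hnf3a replicate 1 and 0.827 to 1.37 CPM in the pcDNA group. The high sums rested mainly on collagen genes. Col1a1, Col3a1 and Col1a2 had 2694, 935 and 815 counts in Hnf3a replicate 2, and 3099, 1240 and 878 in replicate 3. Pdgfra had 13, 38 and 16 counts in Hnf3a replicates 1, 2 and 3. Pdgfra, Pdgfrb, Dcn, Lum and Postn each had at most 62 counts in the 2 libraries with high sums. All 10 macrophage markers were above the floor in these 2 libraries and 3 to 5 in the others. Adgre1, Ptprc and C1qa were low, with at most 41, 31 and 27 counts. Lyz2 had 265 and 273 counts in Hnf3a replicates 2 and 3, against 0 in replicate 1 and 6 to 44 with pcDNA. In the same order Itgam had 56 and 95, against 4 and 8 to 21, and C1qb 57 and 75, against 0 and 0 to 10. Cd14 went the other way, with 2763 to 3244 counts in the Hnf3a group and 4186 to 4953 in the pcDNA group. Cd68 overlapped between the groups. Values without Hnf3a replicates 2 and 3, an alternative chosen after the data were seen, are given beside the called genes below. That fit leaves Hnf3a replicate 1 alone in its group. A call lost in it therefore does not show that the gene depended on these 2 libraries.

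The promoters of the 3 ligands that differed are shown because 2 of the ligands were lower and 1 was higher in the same cells. RefSeq (GRCm38.p6) gave windows for 9 of the 10 genes, 11 windows in all, each covering the 250 bases before a transcription start. Letters of 4 motifs were searched on both strands, and capitals mark the matches. One was the NF-κB consensus, found in 0.673% of 32851 windows of the same length. The AP-1 site TGANTCA was found in 6.75% of them and the STAT site TTCNNNGAA in 7.02%. A forkhead site, written as TGTTTAC and also as TATTTAC, with TGTTTGC and TATTTGC as its other forms, was found in 11.9%. The motifs do not contain one another. Il6 is shown at chr5:30012864-30013113 on the plus strand, Lif at chr11:4257318-4257556 on the plus strand, and Il11 at chr7:4778142-4778391 on the minus strand, before the second of its annotated starts.
Il6: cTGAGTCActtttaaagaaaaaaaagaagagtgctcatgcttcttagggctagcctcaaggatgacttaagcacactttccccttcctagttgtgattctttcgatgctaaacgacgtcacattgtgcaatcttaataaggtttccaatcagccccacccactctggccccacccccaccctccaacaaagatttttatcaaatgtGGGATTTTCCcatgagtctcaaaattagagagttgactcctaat
Lif: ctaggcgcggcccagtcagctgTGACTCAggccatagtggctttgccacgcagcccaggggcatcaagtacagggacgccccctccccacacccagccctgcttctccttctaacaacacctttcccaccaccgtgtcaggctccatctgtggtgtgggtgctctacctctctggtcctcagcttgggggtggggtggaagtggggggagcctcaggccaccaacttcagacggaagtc
Il11: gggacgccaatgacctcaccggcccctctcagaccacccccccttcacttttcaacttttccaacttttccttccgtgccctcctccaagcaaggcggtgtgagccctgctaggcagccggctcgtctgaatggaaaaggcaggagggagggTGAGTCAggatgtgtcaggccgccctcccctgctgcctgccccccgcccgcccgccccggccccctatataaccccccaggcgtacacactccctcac

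The Il6 window held an NF-κB match from 44 to 35 bases before the start and an AP-1 match from 249 to 243 bases before it. The Lif window held an AP-1 match from 228 to 222 bases before its RefSeq start, and the last 11 bases of that window, which lie in an annotated exon, are not printed. The Il11 window held an AP-1 match from 98 to 92 bases before the start. Elsewhere among the 11 windows, that of Socs3 held a STAT match, TTCTTAGAA, from 154 to 146 bases before its RefSeq start. This window (117969367 to 117969616) lies inside the Socs3 coordinates given below, and 77 of its bases are in annotated exons. Not all windows were sequence before a gene. Those of Il6ra and Osmr lay in annotated exons over all 250 bases, and that of the first Il11 start over 173. The windows of Osmr, Lifr and the second Il11 start lay inside the gene coordinates given below. With that limit, none of the 11 windows held the forkhead letters searched. These matches describe letters in short windows, and binding was not measured here.

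Il6, the founding cytokine of the family, is on chromosome 5 (30013114 to 30019981 in GRCm38, plus strand), with 4 exons in its longest transcript. Its level was 3.34, 4.16 and 3.31 FPKM in Hnf3a replicates 1, 2 and 3, and 7.10, 4.91 and 5.90 FPKM in pcDNA replicates 1, 2 and 3. The highest Hnf3a library, replicate 2, was below the lowest pcDNA library, also a replicate 2, and the pcDNA group was the more spread. The mean was 3.60 ± 0.483 FPKM (SD, n = 3) against 5.97 ± 1.09 FPKM (SD, n = 3), and in the count model Il6 fell by 39.8%. This was a log2 fold change of -0.73 (standard error, SE, 0.132), and its 95% interval was -1.02 to -0.44 (edgeR adjusted p 0.00914). It lay between -0.86 and -0.59 with any 1 library left out, past the threshold each time. Without Hnf3a replicates 2 and 3 it was -0.83 with an adjusted p of 0.0591, and in 3 limma fits on FPKM the adjusted p also missed the threshold, at up to 0.0995.

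Lif, which codes for leukaemia inhibitory factor, was the most abundant of the 10 genes. It is on chromosome 11 (4257557 to 4272514, plus strand), with 4 exons. Its level was 72.1, 76.6 and 74.4 FPKM in Hnf3a replicates 1, 2 and 3, and 100.9, 101 and 99.2 FPKM in pcDNA replicates 1, 2 and 3. All 3 Hnf3a libraries sat well below all 3 pcDNA libraries, and each group was tight. The mean was 74.4 ± 2.24 FPKM (SD, n = 3) against 100.4 ± 0.998 FPKM (SD, n = 3), and Lif fell by 26.3%. On the log2 scale the change was -0.44 (SE 0.0295), and its 95% interval was -0.50 to -0.38 (edgeR adjusted p 1.28e-06). Lif passed the threshold in all 17 alternatives, with log2 fold changes of -0.48 to -0.42.

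Il11, which codes for interleukin-11, was the least abundant ligand and the one that rose. It is on chromosome 7 (4772373 to 4782857, minus strand), at coordinates of the table that differ from those of GENCODE vM21. Hnf3a replicates 1, 2 and 3 had 144, 218 and 128 estimated counts of Il11, and the pcDNA replicates in the same order had 89, 65 and 75. In FPKM these were 0.948, 1.32 and 0.831 against 0.629, 0.421 and 0.493. Replicate 2 was the highest Hnf3a library, and the groups did not overlap. The mean was 1.03 ± 0.256 FPKM with HNF3α and 0.514 ± 0.106 FPKM without (SD, n = 3 each). The fitted difference was 1.99-fold, or 0.99 on the log2 scale (SE 0.236), and its 95% interval was 0.48 to 1.50 (edgeR adjusted p 0.0369). Of the 5 calls in the family it was among the less stable. Leaving out Hnf3a replicate 1 moved its adjusted p to 0.0538, leaving out Hnf3a replicate 2 to 0.217, and leaving out pcDNA replicates 1, 2 or 3 to 0.0608, 0.181 or 0.141. The call was kept, at 0.036, without Hnf3a replicate 3. Without both Hnf3a replicates 2 and 3 its log2 fold change was 0.88, with an adjusted p of 0.259. In the limma fit on log2(FPKM + 1), a scale that understates low genes, it was 0.42. The fibroblast markers summed to 65.4 CPM in Hnf3a replicate 2, which had the most Il11, and to 82.4 CPM in replicate 3, which had the least of the Hnf3a group. In Hnf3a replicate 1 they summed to 2.06 CPM. Their part in the level of Il11 was not tested.

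Clcf1, which codes for cardiotrophin-like cytokine factor 1, a ligand that acts through the CNTF receptor, was the second most abundant member. It is on chromosome 19 (4214238 to 4223490, plus strand), where AC109138.7 overlaps it on the same strand, so reads of the 2 genes may be shared. Its level was 22.2, 23.8 and 21.1 FPKM in Hnf3a replicates 1, 2 and 3, and 24.3, 21.7 and 22.2 FPKM in pcDNA replicates 1, 2 and 3. The groups overlapped. The log2 fold change was -0.03 with a 95% interval of -0.14 to 0.08 (edgeR adjusted p 0.88), and it changed sign when 1 library or another was left out.

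Since the ligands changed unequally, their sum and shares were compared. The FPKM of the 4 ligands summed to 98.7, 105.9 and 99.6 in Hnf3a replicates 1, 2 and 3, and to 132.9, 128.0 and 127.8 in pcDNA replicates 1, 2 and 3. The mean sum was 101.4 ± 3.93 against 129.6 ± 2.89 (SD, n = 3 each; exact two-sided permutation test, p = 0.1). With 3 libraries against 3 this test cannot go below 0.1, so none of the sums, shares and ratios given here could reach 0.05. Lif made up 73.4 ± 1.20% of the sum in the Hnf3a group and 77.5 ± 1.51% in the pcDNA group. Clcf1 made up 22.1 ± 0.785% against 17.5 ± 0.698%, its level being similar in both groups. The share of Il11 was 1.01 ± 0.212% against 0.396 ± 0.0727%, and that of Il6 was 3.55 ± 0.334% against 4.60 ± 0.751%. The groups did not overlap for the shares of Lif, Clcf1 and Il11, and they overlapped for that of Il6 (exact permutation p = 0.2).

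Il6st, which codes for gp130, the subunit common to the receptors of the family, was the most abundant receptor gene. It is on chromosome 13 (112464070 to 112510086, plus strand), with 17 exons in its longest transcript. Its level was 13.2, 12.3 and 11.9 FPKM in Hnf3a replicates 1, 2 and 3, and 13.9, 14.3 and 14.1 FPKM in pcDNA replicates 1, 2 and 3. Hnf3a replicate 1 came close to the pcDNA libraries, and the other 2 Hnf3a libraries were lower. The mean was 12.5 ± 0.660 against 14.1 ± 0.194 FPKM (SD, n = 3 each), with a log2 fold change of -0.19 (SE 0.0398, 95% interval -0.27 to -0.10, edgeR adjusted p 0.0194). The call was lost without Hnf3a replicate 2 (adjusted p 0.147), without Hnf3a replicate 3 (0.0631), and without pcDNA replicates 1, 2 and 3 (0.0885, 0.143 and 0.0959). Without Hnf3a replicates 2 and 3 together, the 2 libraries with fibroblast markers, the log2 fold change was -0.10 with an adjusted p of 0.309. Whether those markers had a part in the lower Il6st was not tested.

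Lifr, which codes for the LIF receptor, was the receptor gene that rose. It is on chromosome 15 (7090614 to 7197489, plus strand), with 19 exons in its longest transcript. Its level was 3.56, 3.62 and 3.92 FPKM in Hnf3a replicates 1, 2 and 3, and 2.83, 3.06 and 3.03 FPKM in pcDNA replicates 1, 2 and 3. Every Hnf3a library was above every pcDNA library. The mean was 3.70 ± 0.192 against 2.97 ± 0.127 FPKM (SD, n = 3 each), a 1.24-fold difference. Its log2 fold change was 0.31 (SE 0.0536, 95% interval 0.19 to 0.42, edgeR adjusted p 0.00523). It was 0.27 to 0.33 with any 1 library left out, past the threshold each time. Without Hnf3a replicates 2 and 3 together it was 0.26 with an adjusted p of 0.0986, and the 3 limma fits on FPKM also missed the threshold, at up to 0.11.

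Osmr, which codes for the oncostatin M receptor, is the neighbour of Lifr on chromosome 15 (6813577 to 6874969, minus strand). The 2 genes are transcribed away from each other, 216 kb apart, with no other gene of the table between them. Osmr stood at 3.06, 3.13 and 3.37 FPKM in Hnf3a replicates 1, 2 and 3, and at 3.01, 3.36 and 3.36 FPKM in pcDNA replicates 1, 2 and 3. The groups overlapped, and the log2 fold change was -0.03 with a 95% interval of -0.16 to 0.09 (edgeR adjusted p 0.885). The ratio of Lifr to Osmr in FPKM was 1.16 in each Hnf3a library, against 0.940, 0.909 and 0.902 in pcDNA replicates 1, 2 and 3 (exact permutation p = 0.1, the smallest possible). Thus Osmr was the higher of the pair in each pcDNA library and Lifr in each Hnf3a library. The ratio of Il6st to Lifr was 3.38 ± 0.335 in the Hnf3a group and 4.75 ± 0.145 in the pcDNA group (SD, n = 3 each; exact permutation p = 0.1).

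Il6ra, which codes for the receptor subunit that binds IL-6 itself, was the least abundant receptor gene. It is on chromosome 3 (89864059 to 89913196, minus strand), with Gm42809 on the opposite strand. Its level was 0.628, 0.801 and 0.671 FPKM in Hnf3a replicates 1, 2 and 3, and 0.825, 0.738 and 0.839 FPKM in pcDNA replicates 1, 2 and 3. Hnf3a replicate 2 was above pcDNA replicate 2, so the groups overlapped. Its fitted difference was -0.20 on the log2 scale, with a 95% interval of -0.45 to 0.05 (edgeR adjusted p 0.516), an interval wide enough to hold a change as large as that of Il6st.

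Stat3, the transcription factor that the receptors activate, is on chromosome 11 (100885098 to 100939540, minus strand), next to and partly overlapping Stat5a on the other strand. Its level was 18.8, 18.3 and 19.0 FPKM in Hnf3a replicates 1, 2 and 3, and 17.3, 17.3 and 17.9 FPKM in pcDNA replicates 1, 2 and 3. The 3 Hnf3a libraries were above the 3 pcDNA libraries by a small margin. Stat3 had a log2 fold change of 0.09 (SE 0.0321, 95% interval 0.02 to 0.16) and did not pass the test over all genes (edgeR adjusted p 0.235). The activity of STAT3 depends on its phosphorylation, which RNA sequencing does not measure.

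Socs3, which codes for the feedback inhibitor that STAT3 induces, is on chromosome 11 (117966079 to 117970047, minus strand), with 2 exons. It stood at 12.3, 12.8 and 13.8 FPKM in Hnf3a replicates 1, 2 and 3, and at 13.1, 12.7 and 13.2 FPKM in pcDNA replicates 1, 2 and 3. The Hnf3a libraries lay on both sides of the pcDNA libraries. The log2 fold change was -0.01 with a 95% interval of -0.13 to 0.10 (edgeR adjusted p 0.958). The ratio of Socs3 to Stat3 in FPKM was 0.693 ± 0.0381 in the Hnf3a group and 0.742 ± 0.0125 in the pcDNA group (SD, n = 3 each; exact permutation p = 0.1).

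**Figure D2:**
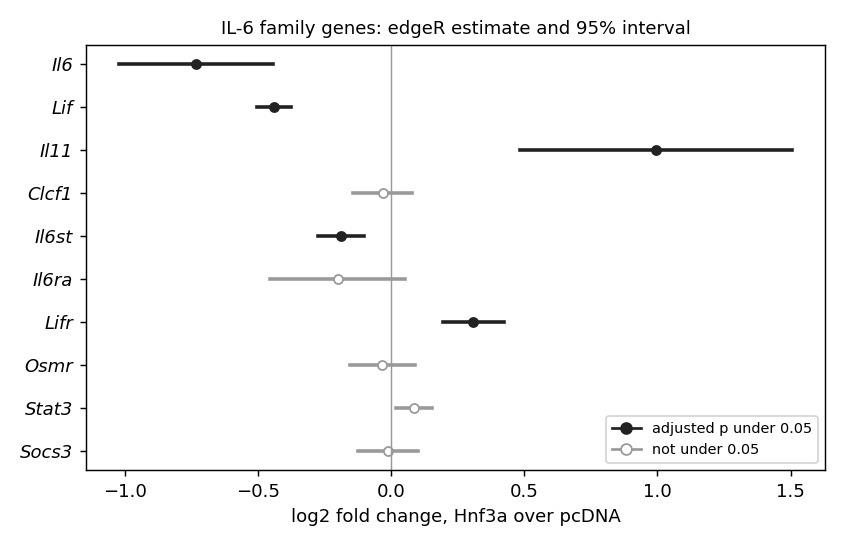
Log2 fold change of each gene, Hnf3a over pcDNA, with its 95% interval from edgeR, filled where the adjusted p was under 0.05. Il6 (-0.73), Lif (-0.44) and Il6st (-0.19) lie left of zero and Il11 (0.99) and Lifr (0.31) right of it, while the intervals of Clcf1, Il6ra, Osmr and Socs3 cross zero.

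The order of the levels also differed between the groups. In the pcDNA group it ran, from the highest, Lif, Clcf1, Stat3, Il6st, Socs3, Il6, Osmr, Lifr, Il6ra and Il11, and the ranges over the 3 libraries of neighbouring genes were apart except for Osmr and Lifr, whose ranges overlapped. In the Hnf3a group it ran Lif, Clcf1, Stat3, Socs3, Il6st, Lifr, Il6, Osmr, Il11 and Il6ra. There, the range of Socs3 overlapped that of Il6st, that of Lifr overlapped Il6, and that of Il6 overlapped Osmr. Il6 was thus above both Lifr and Osmr in each pcDNA library, and it overlapped both in the Hnf3a group. Il11 moved from below Il6ra to above it.

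**Figure D3:**
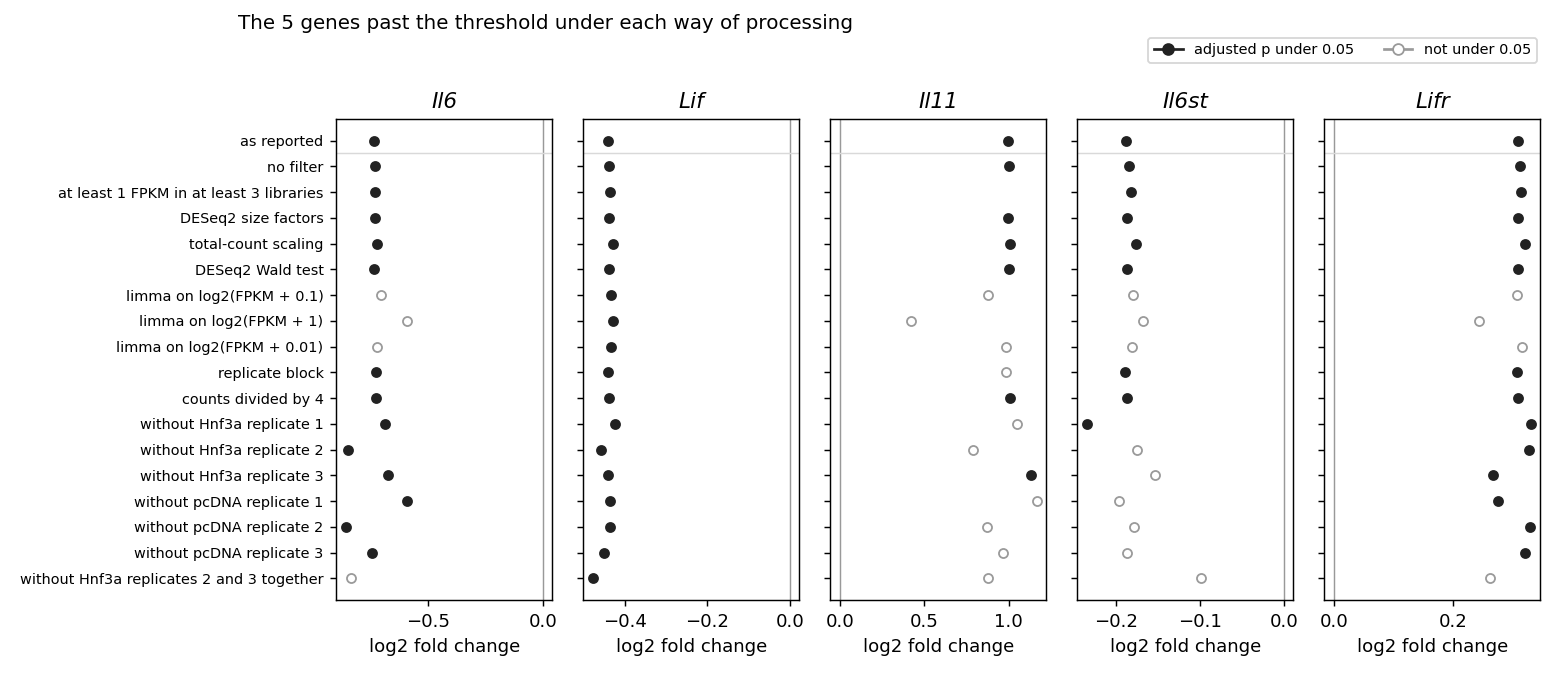
Log2 fold change of the 5 genes past the threshold as reported (top row) and under each of 17 other ways of processing, filled where the adjusted p was under 0.05. Lif is filled in every row, Il6 and Lifr in 13 of the 17 alternatives, Il6st in 8 of 17, and Il11 in 6 of the 16 in which it was tested.

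The log2 CPM of each gene was first centred on its own mean in the pcDNA group, so differences in level between genes did not count. Profiles most like those of Il6 and Socs3 were then sought among 13329 genes, by the root mean square difference over the 6 libraries. For Il6 they were those of Slc2a6, a hexose transporter (difference 0.113), Gm41442, an unnamed gene model (0.114), and Adamts4, an aggrecan-cleaving protease (0.118), where the median gene stood at 0.549. Slc2a6 was 4.17 FPKM in the Hnf3a group and 6.76 FPKM in the pcDNA group, with a log2 fold change of -0.70 (edgeR adjusted p 0.000141, and 0.0115 without Hnf3a replicates 2 and 3). Adamts4 was 1.35 against 2.31 FPKM, with a log2 fold change of -0.79 (edgeR adjusted p 0.00114, and 0.0112 without Hnf3a replicates 2 and 3), and Gm41442, at 0.259 against 0.436 FPKM, did not pass the test (edgeR adjusted p 0.133). For Socs3, with its even profile, they were Cox6b1 (0.0103), Rbm10 (0.0133) and Pcbd1 (0.0138), where the median gene stood at 0.103. These 3 genes had log2 fold changes of -0.01, -0.02 and -0.02. The genes near Il6 and near Socs3 were picked for their profiles in these same libraries. Fold changes like those of Il6 and Socs3 follow from that choice and are no separate result.

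The remaining ligands and receptors that use gp130 or its relatives were mostly low. Of 15 such genes listed, 13 were in the table and 9 were tested, and 8 of the 9 had under 10 CPM. None of the 9 was past the threshold in edgeR, where 3.17% of all tested genes were, and none in DESeq2, where 4.6% were. At an unadjusted p under 0.05 were 2, Cntf and Cntfr, and 13.5% of all tested genes. Their median log2 fold change was -0.15. Cntfr, the receptor subunit through which Clcf1 acts, stood at 3.81 ± 0.354 against 3.17 ± 0.355 FPKM, with a log2 fold change of 0.26 (SE 0.106, edgeR adjusted p 0.287). Il11ra1, the receptor subunit for interleukin-11, was at 1.62 ± 0.124 against 1.65 ± 0.215 FPKM. Osm and Il31 were not analysed here.

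Downstream of the receptors, a list of 27 Janus kinases, STAT factors, SOCS and PIAS inhibitors, phosphatases and shedding proteases held no gene past the threshold. Of 26 tested, none passed in edgeR (3.17% of all tested genes did), 5 were at an unadjusted p under 0.05 (13.5% of all), and DESeq2 called 1, Socs2 (4.6% of all). The groups did not overlap for 9 of the 26, or 34.6%, where this held for 18.9% of all tested genes. The fitted change was below zero for 17 of the 26, and for 8874 of all 17824 tested genes. The log2 fold changes ran from -0.29 for Cish, an inhibitor that STAT5 induces, to 0.12 for Adam17, the protease that sheds the IL-6 receptor, with a median of -0.04. Socs2 stood at 14.4, 15.9 and 16.3 FPKM in Hnf3a replicates 1, 2 and 3, and at 17.5, 17.6 and 16.3 FPKM in pcDNA replicates 1, 2 and 3 (edgeR adjusted p 0.105). The most abundant of the list were Stat2, at 41.6 ± 1.07 against 43.1 ± 0.353 FPKM, and Ptpn11, the phosphatase SHP2, at 35.9 ± 0.302 against 35.9 ± 0.385 FPKM. Jak1, the main kinase on gp130, was at 15.2 ± 0.112 against 15.6 ± 0.385 FPKM (edgeR adjusted p 0.641).

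Among 25 genes known as STAT3 targets in various tissues, 23 were tested, and 6 of them (26.1%) passed the threshold. All 6 were lower in the Hnf3a group, where 2.13% of all tested genes were lower. This list too was chosen with earlier results of these data known, so the shares are not an independent comparison. The fitted change was below zero for 18 of the 23 and above it for 5, with a median of -0.10. It was below zero for 8874 of all 17824 tested genes. Many of these genes also answer to other pathways, so their levels are no readout of STAT3 alone. The early response factor Fos stood at 11.9, 11.7 and 11.5 FPKM in Hnf3a replicates 1, 2 and 3, and at 17.0, 16.8 and 18.5 FPKM in pcDNA replicates 1, 2 and 3, with a log2 fold change of -0.59 (edgeR adjusted p 1.69e-05). The groups of Fos were wide apart. Pim1, a serine/threonine kinase gene, was at 11.5 ± 0.393 against 14.3 ± 0.716 FPKM, a log2 fold change of -0.33 (edgeR adjusted p 0.00153). Icam1, which codes for a leukocyte adhesion molecule, was at 4.84 ± 0.327 against 6.32 ± 0.135 FPKM, a log2 fold change of -0.39 (edgeR adjusted p 0.00226).

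Of the acute phase genes in the list, Lbp and Hp were lower in the Hnf3a group. Lbp, which codes for a lipopolysaccharide-binding protein, was at 14.1 ± 0.622 against 18.1 ± 1.45 FPKM, a log2 fold change of -0.36 (edgeR adjusted p 0.00175). The adjusted p of Lbp was 0.0874 without Hnf3a replicates 2 and 3, and 0.0572 by limma on log2(FPKM + 1). Hp, which codes for haptoglobin, was at 1.45, 1.35 and 0.670 FPKM in Hnf3a replicates 1, 2 and 3, and at 3.83, 3.93 and 2.43 FPKM in pcDNA replicates 1, 2 and 3. In both groups replicate 3 was the lowest. Hp changed by -1.56 on the log2 scale (SE 0.291, edgeR adjusted p 0.0226), and its adjusted p rose to 0.0697 without Hnf3a replicate 2, to 0.0872 without pcDNA replicate 1 and to 0.0754 without pcDNA replicate 2. Without Hnf3a replicates 2 and 3 together Hp was at -1.23 with an adjusted p of 0.0694. The fibrinogen chain genes Fga, Fgb and Fgg were low, at 0.0800 to 0.795 FPKM in any library, and did not pass (log2 fold changes of -1.26, -0.87 and -1.11, and edgeR adjusted p 0.0555, 0.217 and 0.257).

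Ccnd1, which codes for cyclin D1 and was the most abundant of the targets, was 136.8 ± 0.666 against 146.7 ± 2.26 FPKM, a log2 fold change of -0.11 (edgeR adjusted p 0.0355). That call was kept in 5 of 17 alternatives, and with 1 library left out it was kept only without Hnf3a replicate 1 (adjusted p 0.0274 to 0.222 over the 6). Its adjusted p was 0.153 without Hnf3a replicates 2 and 3 together. Bcl2l1, an inhibitor of apoptosis and the next most abundant, was at 73.5 ± 0.707 against 74.6 ± 1.38 FPKM (edgeR adjusted p 0.756). Other targets of the list, Bcl3, Junb, Cebpd, Myc and Mcl1, named after their values were seen, did not pass the test either. Their log2 fold changes were 0.03, -0.02, -0.10, -0.10 and 0.004. Myc was called when Hnf3a replicate 1 was left out, and Cebpd when Hnf3a replicate 3 was. Without Hnf3a replicates 2 and 3, 3 of the 23 were called, Fos, Pim1 and Icam1, with log2 fold changes of -0.55, -0.38 and -0.37 and adjusted p of 0.00426, 0.024 and 0.0274. The macrophage markers summed to 70.4 to 83.2 CPM in the Hnf3a group and 93.3 to 101.5 CPM in the pcDNA group. Cd14 and Cd68 were the most abundant of them, followed by Csf1r. Less abundant markers of the list, among them Lyz2, Itgam and C1qb, were instead higher in Hnf3a replicates 2 and 3, as given above. Cd14 was itself lower in the Hnf3a group (edgeR adjusted p 2.63e-06), while Csf1r had 762, 853 and 836 counts in Hnf3a replicates 1 to 3 against 690, 554 and 657 in the pcDNA replicates (edgeR adjusted p 0.26). Their part in these results was not tested.

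**Figure D4:**
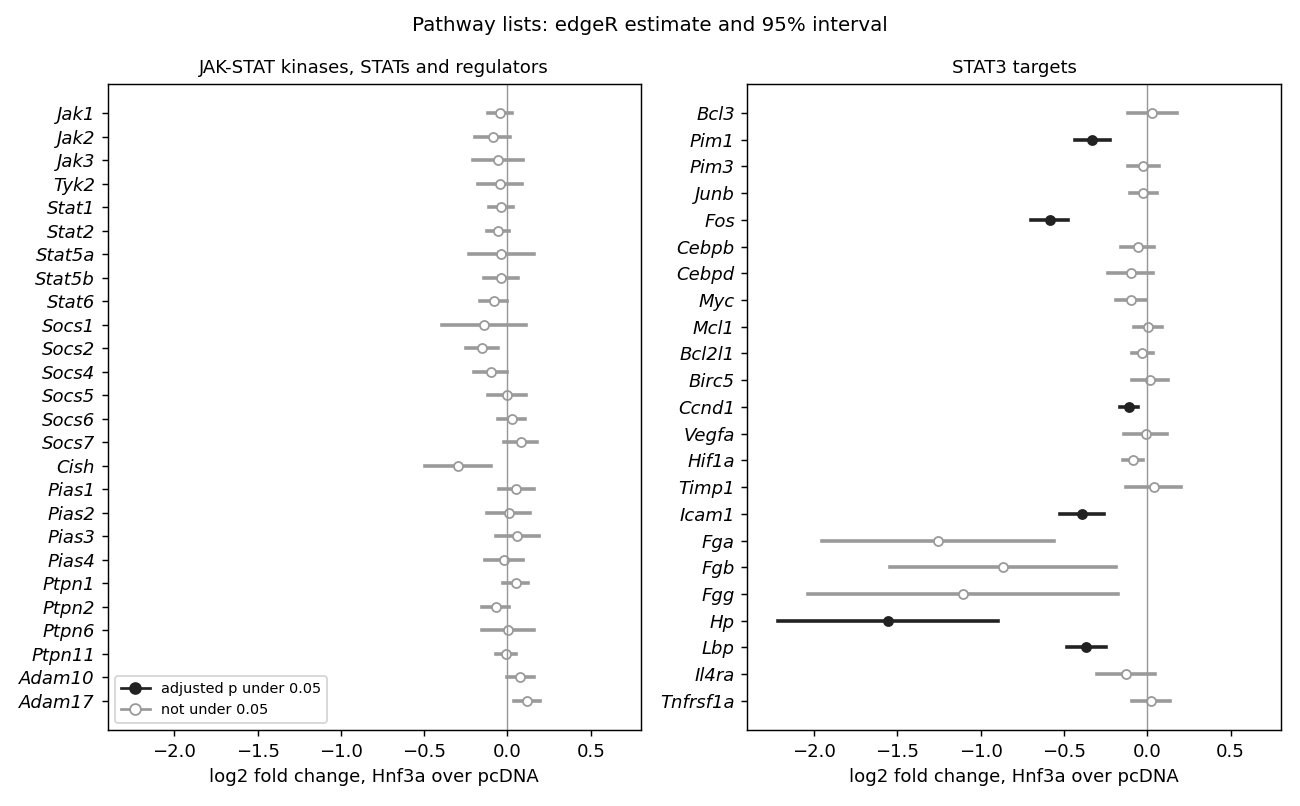
Log2 fold change, Hnf3a over pcDNA, with its 95% interval for the 26 tested kinases, STAT factors and regulators (left) and the 23 tested STAT3 targets (right), filled where the edgeR adjusted p was under 0.05. On the left no gene is filled and the values run from -0.29 to 0.12, while on the right 6 are filled, all left of zero, from Hp at -1.56 to Ccnd1 at -0.11.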

How the data were processed

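Polyadenylated RNA of 6 TKPTS cultures was made into strand-marked (dUTP) libraries with unique molecular identifiers and sequenced from both ends. Groups and replicate numbers came from the sample labels. Nothing states that the replicates were separate cultures beyond the labels, so p-values measure the spread between these samples. The authors deposited, per gene and library, an estimated count and an FPKM value. The submitters' processing notes name cutadapt 1.9, HISAT2 2.0.4, UMI-tools, StringTie 1.3.4d, DESeq2 and edgeR, and the mouse build mm10; roles, annotation and the use of strand in counting are not given in the sources used here, so reads of genes overlapping on opposite strands may be shared. The deposited estimated counts were whole numbers, with more genes at exactly 4 counts (1148 to 1203 per library) than at 3 or 5, so 1 fragment may be worth up to 4 counts, and the floor of 12 counts (0.169 to 0.198 CPM) stands for 3 fragments, counting error only. Coordinates are those of the table, and 25765 of 29514 shared genes are identical in GENCODE vM21 (GRCm38), which also gave exon numbers.

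Counts were filtered with filterByExpr, scaled by TMM and tested two-sided with the robust quasi-likelihood F test of edgeR 4.0.16 (R 4.3.3) over all 17824 genes, adjusted by Benjamini and Hochberg, with no covariate. A standard error was taken as the size of the log2 value over the square root of F. The procedure was tested on simulated data. The members and gene lists were chosen with earlier results of these data known. Genes named were the 10 members, list genes past the threshold, the 2 most abundant tested genes of each list, the 3 nearest profiles to Il6 and Socs3 among genes of at least 1 CPM, and Foxa1 (1 gene that this rule names is not reported here); other genes named were chosen after their values were seen. Alternatives were other filters and scalings, DESeq2 1.42.0, limma 3.58.1 on log2(FPKM + 0.1, 1 or 0.01), a replicate block, counts divided by 4, and leaving out libraries. Marker lists covered proximal tubule, kidney epithelium, macrophage, fibroblast, lymphocyte and endothelium; the last 2 summed to 0 to 0.253 CPM and 2.91 to 4.90 CPM. The proximal tubule list summed to 8.90 to 10.9 CPM.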

Additional observations from a re-analysis of the deposited data

How the results depend on the processing

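Over the 10 members, 5 were past the threshold as reported. The count was 1, Lif, in each of the 3 limma fits on FPKM, and also 1 without Hnf3a replicates 2 and 3, the alternative chosen after the data were seen. It was 3 to 4 with 1 library left out, and 4 with the replicate number as a block. Of 23 STAT3 targets, 6 were called as reported, 3 by limma on log2(FPKM + 1), 3 without Hnf3a replicates 2 and 3, and 4 to 9 with 1 library left out. Of the kinases, STAT factors and regulators, none was called as reported and 1 both by DESeq2 and without Hnf3a replicates 2 and 3. The fit without Hnf3a replicates 2 and 3 has Hnf3a replicate 1 alone in its group, so calls lost there cannot be laid to those 2 libraries. The causes were not tested.

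The direction turned in a few genes with log2 fold changes near 0. With 1 library left out, Clcf1 ran from -0.0742 to 0.0211, Socs3 from -0.0609 to 0.0202, Cox6b1 from -0.0622 to 0.0317, Rbm10 from -0.0732 to 0.0158 and Pcbd1 from -0.0633 to 0.0179. With total-count scaling Cox6b1 was at 0.004 and Ptpn11 at 0.002. Over all genes, 565 were called as reported, 231 to 245 by limma, 819 by DESeq2, 263 to 643 with 1 library left out and 322 without Hnf3a replicates 2 and 3.

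Same-numbered libraries did not visibly deviate together (r of -0.0104, 0.014 and -0.0459 over 13339 genes). With 3 libraries per group this cannot show whether the cultures were handled in pairs. With the replicate block, 463 genes were called, Il11 had an adjusted p of 0.0753 and Ccnd1 one of 0.0625 in edgeR, and the other members kept their side of the threshold. Depth was lowest among the members for Il11, at 65 to 218 estimated counts per library, and its call was kept with counts divided by 4 (edgeR adjusted p 0.0208).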

Other observations

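Beyond the gp130 receptors, a list of 24 other type I cytokines and receptors, written after the data were seen, had 20 genes in the table and 14 tested. In edgeR, 2 of the 14 passed the threshold, where 3.17% of all tested genes did, 1 higher (1.04% of all) and 1 lower (2.13% of all). Tslp, which codes for an epithelial cytokine that signals through a receptor of this wider family, was at 3.91, 3.78 and 3.39 FPKM in Hnf3a replicates 1, 2 and 3, and at 6.25, 5.50 and 5.46 FPKM in pcDNA replicates 1, 2 and 3. The groups of Tslp were apart, with a log2 fold change of -0.64 (SE 0.112, edgeR adjusted p 0.00523). Tslp passed in 16 of 17 alternatives, and without Hnf3a replicates 2 and 3 its adjusted p was 0.142. Crlf2, which codes for its receptor subunit, stood at 3.68 ± 0.178 against 3.70 ± 0.470 FPKM (SD, n = 3 each).

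Epor, which codes for the erythropoietin receptor, was at 1.37, 1.61 and 1.61 FPKM in Hnf3a replicates 1, 2 and 3, and at 0.912, 0.993 and 0.943 FPKM in pcDNA replicates 1, 2 and 3. On the log2 scale Epor was 0.68 higher (SE 0.16, edgeR adjusted p 0.0353). This call was kept in 9 of 17 alternatives, and in 1 of the 6 that left out a library (adjusted p 0.0357 to 0.15). Without Hnf3a replicates 2 and 3 its log2 fold change was 0.52 with an adjusted p of 0.379.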
